A study of Rattus norvegicus with 6 samples.

Results

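The 10 genes described here encode 7 type II transmembrane serine proteases (Tmprss2, Tmprss4, Tmprss11d, Tmprss13, Hpn, Corin and St14) and 3 of their partners, the membrane-bound protease Prss8 and the Kunitz-type inhibitors Spint1 and Spint2. They were chosen by gene name, and all 10 were present among the 40995 genes of the count and FPKM tables. Lung tissue came from 3 knockout (KO) rats of the crTMPRSS2 line, in which CRISPR/Cas9 was used against Tmprss2, and from 3 wild-type (WT) rats. All 6 were Sprague-Dawley rats and received no treatment. The sources used here give neither age, sex and litter nor the edited allele and the founders of the line. The comparison asks how the mRNA of these genes differed between the edited line and WT rats at baseline.

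Type II transmembrane serine proteases are made as inactive precursors, held in the plasma membrane by a segment near the amino terminus, with a trypsin-like catalytic domain facing outwards. They are activated by cleavage at the start of that domain, some by themselves and some by one another. In epithelia, matriptase (St14) and prostasin (Prss8) act on each other and on shared substrates, and the inhibitors HAI-1 (Spint1) and HAI-2 (Spint2) hold them in check. In the airway, TMPRSS2 and related enzymes cleave the surface proteins of influenza viruses and coronaviruses.

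Upstream sequences of 3 genes that span the range of levels described below are shown: the inhibitor Spint2, the edited gene Tmprss2 and the nearly silent Tmprss11d. RefSeq's table of promoters (build GRCr8) held 6 of the 10 genes. Each run is the 250 bases before the annotated start, 5′ to 3′ on the gene's strand, with the GC box (GGGCGG) and the CCAAT box (CCAAT) in capitals on either strand. Spint2 lies at chr1:93708092-93708341 on the minus strand, Tmprss2 at chr11:50443115-50443364 on the minus strand and Tmprss11d at chr14:22108279-22108528 on the plus strand.
Spint2: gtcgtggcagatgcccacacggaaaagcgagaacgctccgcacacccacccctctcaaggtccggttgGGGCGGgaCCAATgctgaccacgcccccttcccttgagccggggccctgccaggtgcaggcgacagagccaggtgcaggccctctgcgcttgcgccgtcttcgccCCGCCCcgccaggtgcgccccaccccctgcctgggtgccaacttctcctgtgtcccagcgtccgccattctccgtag
Tmprss2: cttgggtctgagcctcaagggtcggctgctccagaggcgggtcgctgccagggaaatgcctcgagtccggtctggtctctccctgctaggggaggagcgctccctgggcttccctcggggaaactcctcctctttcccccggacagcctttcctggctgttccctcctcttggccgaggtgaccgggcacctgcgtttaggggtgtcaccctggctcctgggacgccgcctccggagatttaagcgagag
Tmprss11d: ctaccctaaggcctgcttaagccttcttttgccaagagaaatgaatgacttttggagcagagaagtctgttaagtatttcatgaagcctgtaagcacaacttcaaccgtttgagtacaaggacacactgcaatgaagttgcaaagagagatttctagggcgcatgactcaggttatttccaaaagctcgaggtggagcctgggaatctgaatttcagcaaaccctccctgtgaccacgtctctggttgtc

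The Spint2 window had a GC content of 69.6% with 20 CpG dinucleotides, and held 2 GC boxes and 1 CCAAT box. The Tmprss2 window had a GC content of 65.6% with 15 CpG dinucleotides and neither motif. Tmprss11d stood at 45.6% and 4 CpG dinucleotides, also with neither motif. Of the genes not shown, Spint1 stood at 70.4% with 28 CpG dinucleotides, Hpn at 65.6% with 7 and Corin at 62.4% with 13. Spint1 and Hpn held GC boxes and Corin held neither motif. A link between these letters and the level of a gene was not tested. Over 33469 promoters of the same length the median GC content was 51.2% and the median number of CpG dinucleotides was 5. A GC box was present in 30.5% of them and a CCAAT box in 34.0%, against 3 and 2 of the 6 genes. TATAAA was in 12.9% of promoters and in 0 of the 6. No match in the Spint2 window overlapped another, and a match or its absence is a description of the letters only.

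The libraries held 29933359 to 36895162 counted reads. The 10 alveolar type 2 cell markers were detected in every library, among them Sftpc at 8325 to 15408 CPM (counts per 1e6 reads of normalised library size). WT replicate 1 stood apart. Its 16 squamous epithelium markers summed to 3443 CPM, against 9.42 to 14.1 CPM in the other 5 libraries, and its 12 skeletal muscle markers to 10811 CPM, against 24.4 to 53.2 CPM. In that library 1 of the 16 squamous markers and 0 of the 12 muscle markers had no read. In the other 5 libraries 6 to 8 and 0 to 3 had none. The alveolar type 2 list was also highest there, at 35796 CPM, against 18465 to 20303 CPM in KO libraries and 21915 to 23255 CPM in WT replicates 2 and 3. Fold changes are therefore given with and without WT replicate 1, and the part of these RNAs in a result was not tested unless a value is stated. In tissue RNA, fewer cells of a type and less RNA per cell cannot be told apart.

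**Figure D1:**
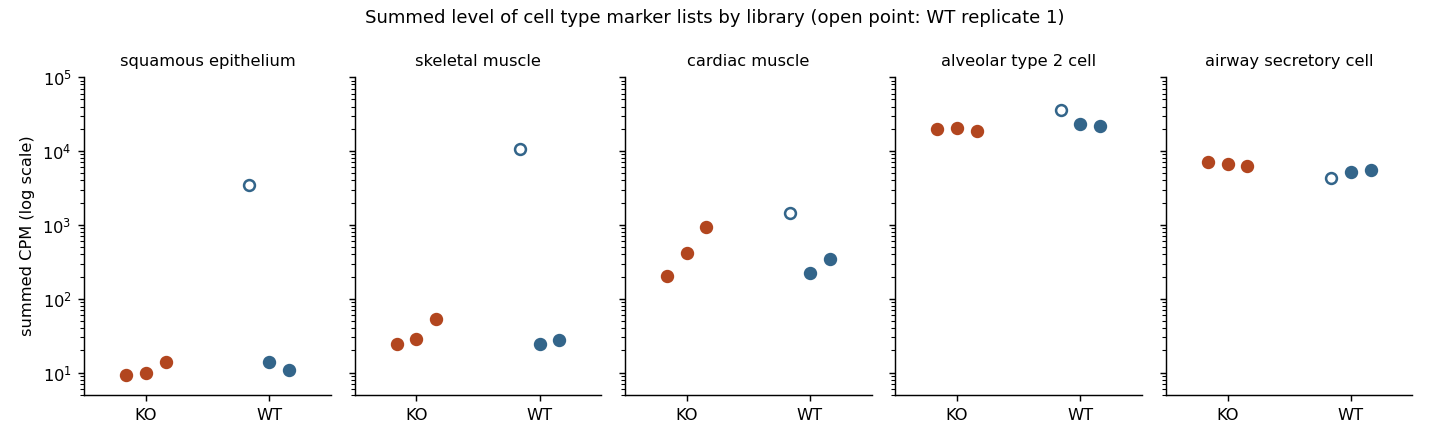
Summed CPM (log axis) of 5 cell type marker lists in each KO (left) and WT (right) library. WT replicate 1 (open point) stands at 3443 CPM for the squamous list and 10811 CPM for the skeletal muscle list, far above the other 5 libraries.

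None of the genes that could be tested differed between KO and WT lungs past the threshold. With all 6 libraries, 8 of the 10 genes passed the filter on low counts and 0 of the 8 had an adjusted p under 0.05 in edgeR's quasi-likelihood test, against 0.0542% of all 18464 genes tested (0.0162% higher and 0.0379% lower in KO). Hpn alone had an unadjusted p under 0.05, as did 11.3% of all genes, and DESeq2 and limma also called 0 of the 8. Without WT replicate 1, 0 of the 8 passed again, against 3.99% of 18994 genes (1.65% higher and 2.34% lower in KO). Unadjusted p-values under 0.05 came from 2 of the 8 (Tmprss2 and Hpn) and from 17.8% of all genes. In that fit DESeq2 called Tmprss2 alone, against 6.51% of the 18257 genes it gave an adjusted p, and limma none. The log2 fold change was below 0 for 7 of the 8 genes with all 6 libraries, and 50.3% of all genes lay below 0. It was below 0 for 6 of the 8, and for 49.3% of all genes, without WT replicate 1. The median of the 8 was -0.24 with all 6 libraries and -0.05 without WT replicate 1, and that of all genes was 0.00 in both. Of the 192 genes in the authors' deposited table of differences between KO and WT, whose absolute log2 fold changes start at 1.00, 0 belong to the 10.

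**Figure D2:**
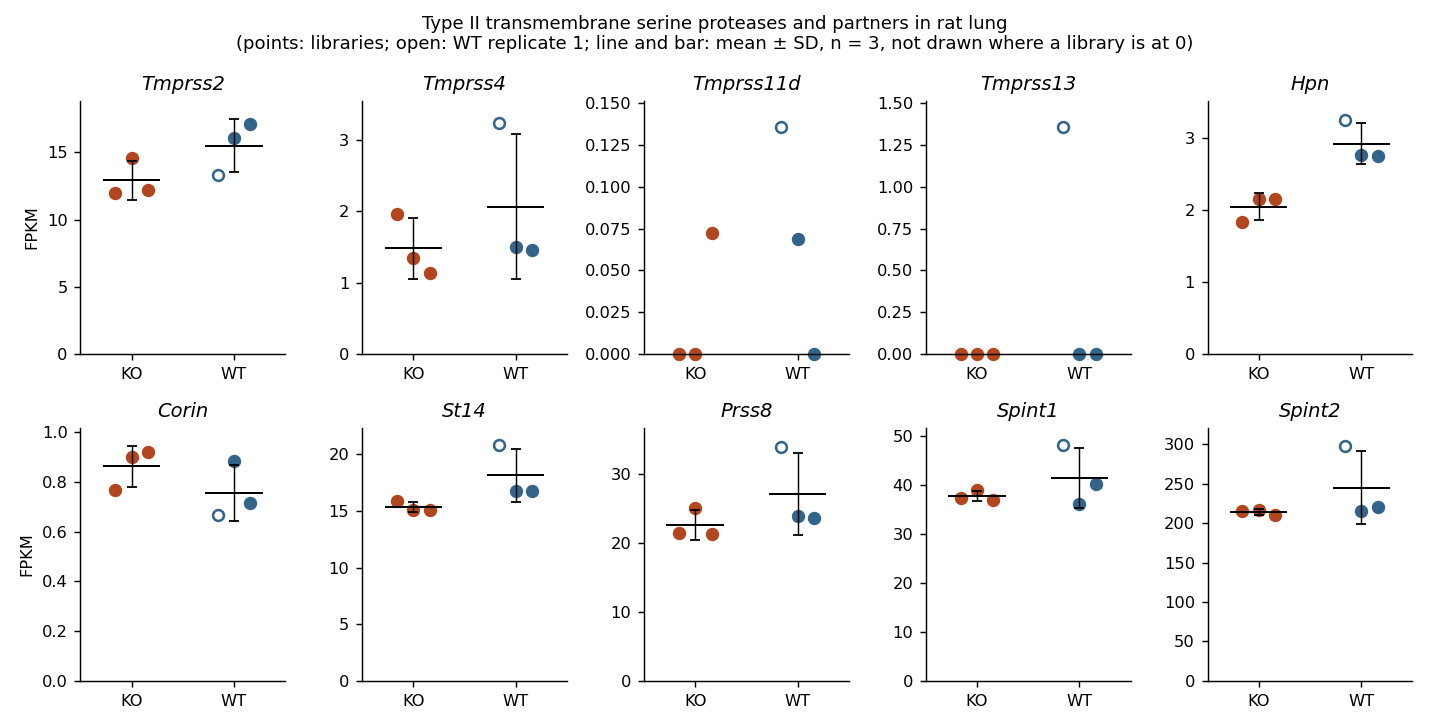
FPKM of the 10 genes in each KO (left) and WT (right) library, with axes that start at 0. The KO and WT points of Hpn and St14 do not overlap, and WT replicate 1 (open) is the highest library for 8 of the 10 genes.

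The genes stood in a wide order of levels. On the FPKM scale, which divides by gene length and allows genes to be compared, the mean over the 6 libraries was 230 for Spint2, 39.6 for Spint1, 24.8 for Prss8, 16.8 for St14 and 14.2 for Tmprss2. Lower down were Hpn at 2.49, Tmprss4 at 1.77, Corin at 0.809, Tmprss13 at 0.227 and Tmprss11d at 0.0462 FPKM. Spint2 ranked 225 among the 40995 genes, Tmprss2 5073 and Tmprss11d 22445. St14 and Tmprss2 were not separated by their spread: St14 ranged from 15.1 to 20.8 FPKM and Tmprss2 from 12.0 to 17.1 FPKM, with St14 higher in 5 of 6 libraries. Hpn and Tmprss4 overlapped as well, with Hpn higher in 5 of 6 libraries. Corin was above Tmprss13 in 5 of 6 libraries, WT replicate 1 being the exception.

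Tmprss2, the edited gene, encodes the protease that primes several respiratory viruses for entry. The gene lies on chromosome 11 at 36934306 to 36973779 of mRatBN7.2, on the minus strand. Its level was 12.0, 14.6 and 12.2 FPKM in KO replicates 1 to 3, against 13.3, 16.1 and 17.1 FPKM in WT replicates 1 to 3. The groups overlapped through KO replicate 2, which lay above WT replicate 1. In reads, Tmprss2 had 1423, 1788 and 1475 counts in KO libraries and 1492, 2055 and 2452 counts in WT libraries. Its log2 fold change of -0.25 (SE 0.14, adjusted p = 0.508 in edgeR) corresponds to a level 16.1% lower in KO, with a 95% confidence interval from 32.9% lower to 4.76% higher. Reads of the targeted gene were thus present in every KO library, and the gene total checks neither the genotype labels nor the protein.

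The groups of Tmprss2 no longer overlapped once WT replicate 1 was left out. KO averaged 49.8 ± 5.69 CPM (SD, n = 3) and WT replicates 2 and 3 averaged 63.9 ± 2.66 CPM (SD, n = 2). The log2 fold change was -0.36 (SE 0.09, edgeR adjusted p = 0.0589), 21.9% lower in KO with an interval from 32.1% to 10.2% lower. This value lay close to the threshold of 0.05. It passed with DESeq2 (adjusted p 0.0122), with no filter on low counts (0.00110) and without KO replicate 2 (0.0340), and over all alternatives of that fit the adjusted p ran from 0.00110 to 0.214. Its log2 fold change stayed between -0.45 and -0.30 in them. In the same edgeR fit, where 2.34% of all genes passed as lower and 1.65% as higher in KO, 2 of the 10 alveolar type 2 markers passed as lower, Sftpc at -0.20 and Lamp3, a lamellar body protein, at -0.42 (log2). Of the 7 airway secretory markers 2 passed and were higher in KO, Scgb1a1 at 0.38 and Scgb3a2 at 0.48, and 1 of the 10 pan-epithelial markers, Krt19, passed as lower. The 7 secretory markers summed to 7053, 6683 and 6351 CPM in KO libraries and to 4276, 5170 and 5455 CPM in WT libraries. Their part in the difference of Tmprss2 was not tested.

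Tmprss4, which can cleave influenza haemagglutinin and is studied as an activator of the epithelial sodium channel, gave no stable direction. The deposited table places it on chromosome 8 at 45475819 to 45508409, on the minus strand. Its level was 11.1, 7.69 and 6.47 CPM in KO libraries and 18.2, 8.53 and 8.34 CPM in WT libraries. WT replicate 1 was 2.19-fold above the median of the other 5 libraries in CPM, and the KO and WT ranges overlapped. With all 6 libraries the log2 fold change was -0.47 (SE 0.36, adjusted p = 0.607 in edgeR). With WT replicate 1 left out it was 0.00 (SE 0.21, adjusted p = 1.00), and the interval of that fit ran from 28.2% lower to 39.3% higher in KO.

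Tmprss13, also called MSPL and known from stratified epithelia of mouse, was found in a single library. It lies on chromosome 8 at 45625759 to 45653943, on the plus strand. It had 0, 0 and 0 counts in KO libraries, and 125, 0 and 0 counts in WT replicates 1 to 3. At these depths a count of 0 allows up to 0.0946 to 0.0971 CPM in KO libraries and up to 0.0905 and 0.0804 CPM in WT replicates 2 and 3 (3 counts a library, counting error only), against 4.23 CPM in WT replicate 1. These floors take each count as independent. Where both mates of a pair are counted, as appears for these libraries, a count of 0 allows more. The library that held Tmprss13 is the one with squamous markers, where Krt4 stood at 1579 CPM, Krt13 at 1339 CPM and Krt5 at 195 CPM. Those 3 keratins reached at most 1.04, 0.429 and 2.46 CPM elsewhere. WT replicate 1 was also the highest library for skeletal muscle markers (10811 CPM) and alveolar type 2 markers (35796 CPM). In a single library these sources cannot be told apart, and the source of the Tmprss13 reads was not tested. The gene did not pass the filter on low counts, so edgeR's fit did not test it between groups. It was not called in the alternative fits that included it.

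Tmprss11d, which in human is called the airway trypsin-like protease, was close to the detection limit. The gene lies on chromosome 14 at 21707336 to 21769398, on the plus strand. It had 0, 0 and 4 counts in KO libraries and 7, 4 and 0 counts in WT libraries. Since even counts outnumbered odd ones among low counts (3355 to 1802 in KO replicate 1), both mates of a pair appear to be counted, and 4 counts may be fewer fragments. A difference between groups was not detectable at this depth. The gene did not pass the filter on low counts, and alternative fits that included it did not call it.

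Hpn, hepsin, a protease best known from liver and kidney that can activate pro-HGF, had the lowest unadjusted p of the 8 genes with all 6 libraries. The deposited table places it on chromosome 1 at 86337085 to 86352785, on the minus strand. Its level was 1.83, 2.16 and 2.16 FPKM in KO libraries and 3.25, 2.77 and 2.75 FPKM in WT libraries. Every KO library lay below every WT library. Such separation held for 2 of the 8 genes (Hpn and St14) with all 6 libraries and for 22.8% of all genes (11.4% lower in KO). Leaving out WT replicate 1, it held for 3 of the 8 (Tmprss2 too) and for 34.6% of all genes (17.5% lower in KO). Hpn had a log2 difference of -0.50 (SE 0.15, unadjusted p 0.0100, adjusted p = 0.300 in edgeR), 29.5% lower in KO with an interval from 44.4% to 10.6% lower. It was -0.43 (SE 0.13, adjusted p = 0.103) without WT replicate 1. DESeq2 gave an adjusted p of 0.0666, and over the alternatives of the 6-library fit the adjusted p ran from 0.0666 to 0.815. The 9 hepatocyte markers matched summed to 60.0, 52.8 and 54.3 CPM in KO libraries and to 77.5, 67.7 and 53.4 CPM in WT libraries, with 2 to 4 of the 9 at 0 in each library. Albumin (Alb), the defining one, stood at 0, 0 and 0.255 CPM in KO libraries and at 0.0677, 0 and 0.214 CPM in WT libraries. Much of the hepatocyte sum was Serpina1, at 26.8, 24.4 and 26.5 CPM in KO libraries and 58.9, 41.7 and 27.9 CPM in WT libraries. Of the 4 hepatocyte markers tested, the log2 fold change was below 0 for 1 with all 6 libraries and for 2 without WT replicate 1. The part of hepatocyte RNA in the level of Hpn was not tested.

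Corin converts the precursor of atrial natriuretic peptide to its active form and is best known from heart muscle. It lies on chromosome 14 at 35680601 to 35910703, on the plus strand. Its level was 7.12, 8.39 and 8.55 CPM in KO libraries and 6.09, 8.20 and 6.65 CPM in WT libraries. The ranges overlapped, and KO over WT gave 0.20 on the log2 scale (SE 0.19, adjusted p = 0.661 in edgeR), or 0.11 without WT replicate 1 (SE 0.17, adjusted p = 0.802). Heart muscle RNA varied far more between libraries than Corin. The atrial myosin chain Myl7 stood at 32.4, 71.3 and 172 CPM in KO libraries, and at 17.4, 52.4 and 63.4 CPM in WT libraries. The whole list of 10 cardiac muscle markers summed to 203, 412 and 928 CPM in KO libraries and to 1456, 223 and 346 CPM in WT libraries, WT replicate 1 being high through Actc1 and Myl3, which skeletal muscle also expresses. The part of heart muscle RNA in the level of Corin was not tested. Its substrate gene Nppa, atrial natriuretic peptide, stood at 0, 2.58 and 9.25 CPM in KO libraries and at 0.474, 0.905 and 1.55 CPM in WT libraries.

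St14, matriptase, activates prostasin, pro-HGF and the receptor PAR2 at epithelial surfaces. The gene lies on chromosome 8 at 29540805 to 29581704, on the minus strand. Its level was 15.9, 15.1 and 15.1 FPKM in KO libraries and 20.8, 16.8 and 16.8 FPKM in WT libraries. Every KO library was below every WT library, but the difference was small. KO over WT gave -0.23 on the log2 scale (SE 0.11, adjusted p = 0.475 in edgeR), 14.9% lower in KO with an interval from 28.9% lower to 1.98% higher. Leaving out WT replicate 1 gave -0.13 (SE 0.07, adjusted p = 0.348), 8.55% lower with an interval from 17.3% lower to 1.12% higher. Together St14 and Tmprss2 made up most of the summed FPKM of the 7 proteases: St14 gave 44.3% to 49.1% in KO libraries and 43.3% to 48.7% in WT libraries. Tmprss2 gave 36.9% to 42.8% in KO libraries, and 31.1%, 42.2% and 44.0% in WT replicates 1 to 3.

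Prss8, prostasin, is tied to the membrane by a lipid anchor and is a channel-activating protease of the epithelial sodium channel. The deposited table places it on chromosome 1 at 182536229 to 182540745, on the minus strand. Its level was 21.4, 25.0 and 21.3 FPKM in KO libraries and 33.9, 23.8 and 23.5 FPKM in WT libraries. WT replicate 1 was highest, and KO replicate 2 lay above the other WT libraries. KO over WT gave -0.25 on the log2 scale (SE 0.16, adjusted p = 0.556 in edgeR) with all 6 libraries. Leaving out WT replicate 1 gave -0.06 (SE 0.08, adjusted p = 0.765), with an interval from 15.9% lower to 8.66% higher in KO.

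The inhibitors Spint1 and Spint2 were the most abundant of the 10 genes. Spint1 lies on chromosome 3 at 106231082 to 106244121 on the plus strand, and Spint2 on chromosome 1 at 84558159 to 84580616 on the minus strand. Spint1 stood at 37.4, 38.9 and 36.8 FPKM in KO libraries, against 48.1, 36.1 and 40.2 FPKM in WT libraries. Spint2 stood at 215, 217 and 210 FPKM in KO libraries, against 298, 216 and 221 FPKM in WT libraries. In both genes WT replicate 1 was the highest library and the other 5 lay close together. The log2 fold changes with all 6 libraries were -0.13 for Spint1 (SE 0.12, adjusted p = 0.657 in edgeR) and -0.19 for Spint2 (SE 0.14, with 0.598). They were -0.01 (SE 0.07) and -0.03 (SE 0.05) without WT replicate 1. That fit bounds the Spint2 difference between 9.35% lower and 6.19% higher in KO, and the Spint1 difference between 10.7% lower and 9.89% higher.

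**Figure D3:**
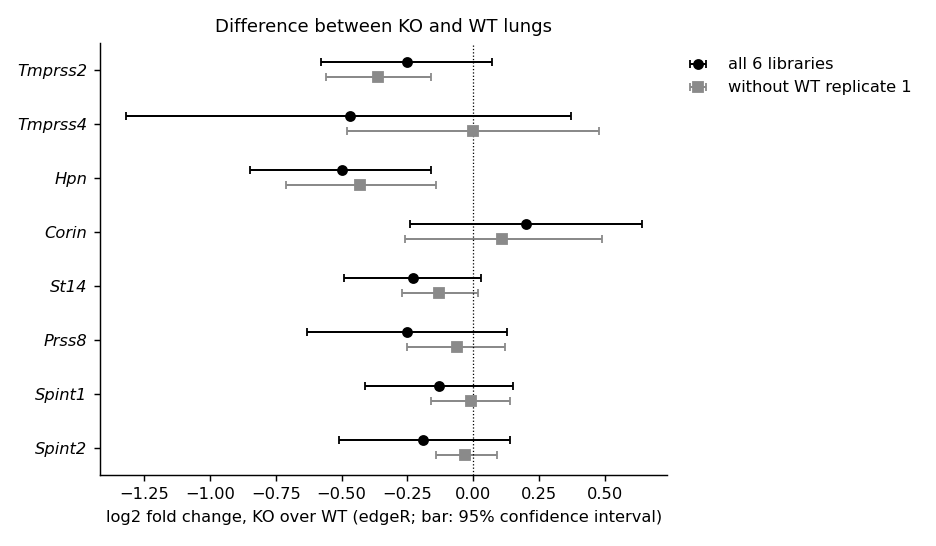
Log2 fold change, KO over WT, of the 8 genes that passed the filter, with all 6 libraries (circles) and without WT replicate 1 (squares), and 95% confidence intervals. The intervals of Hpn lie below 0 in both fits, and that of Tmprss2 lies below 0 without WT replicate 1, but neither gene passed the adjusted edgeR test. DESeq2 called Tmprss2 without WT replicate 1 (adjusted p 0.0122).

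WT replicate 1 stood apart by a different amount for each gene. Relative to the median CPM of the other 5 libraries it stood at 1.27-fold for Spint1, 1.29-fold for St14, 1.36-fold for Spint2 and 1.48-fold for Hpn, with Prss8 between the last 2. For Tmprss2 it stood at 0.896-fold and for Corin at 0.743-fold. Surfactant protein C (Sftpc) was also high in it, at 15408 CPM, against 8460, 8724 and 8325 CPM in KO libraries and 10042 and 9470 CPM in WT replicates 2 and 3. The ciliated cell list was low in it, at 136 CPM, against 288 to 294 CPM in KO libraries and 227 and 297 CPM in the other WT libraries. The part of these markers in the levels of the 10 genes was not tested.

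Ratios of protease to inhibitor mRNA, taken within a library on the FPKM scale, overlapped between KO and WT in all 6 libraries. The ratio of St14 to Spint1 was 0.426, 0.388 and 0.409 in KO libraries, against 0.432, 0.467 and 0.418 in WT libraries. The ratio of Prss8 to Spint1 was 0.573, 0.643 and 0.577 in KO libraries, against 0.704, 0.659 and 0.585 in WT libraries. Both ratios overlapped between groups. Tmprss2 to Spint1 was 0.320, 0.375 and 0.331 in KO libraries, against 0.276, 0.446 and 0.425 in WT libraries. WT replicate 1 was the lowest of the 6 here and the other 2 WT libraries the highest. Without it the ranges did not overlap and the KO mean was 0.786 of the WT mean. Tmprss2 to Spint2 was 0.0556, 0.0673 and 0.0580 in KO libraries, against 0.0445, 0.0743 and 0.0773 in WT libraries. St14 to Spint2 was 0.0740, 0.0697 and 0.0715 in KO libraries, against 0.0696, 0.0778 and 0.0761 in WT libraries. These ratios too did not overlap without WT replicate 1, the KO means being 0.795 and 0.932 of the WT means. Prss8 to Spint2 was 0.0996 to 0.115 in KO libraries and 0.106 to 0.114 in WT libraries, and it overlapped with and without WT replicate 1, as did St14 and Prss8 to Spint1. Spint2 mRNA was 5.57 to 5.75 times that of Spint1 in KO libraries and 5.50 to 6.20 times in WT libraries. These ratios were not tested, and mRNA ratios do not give the balance of the proteins.

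**Figure D4:**
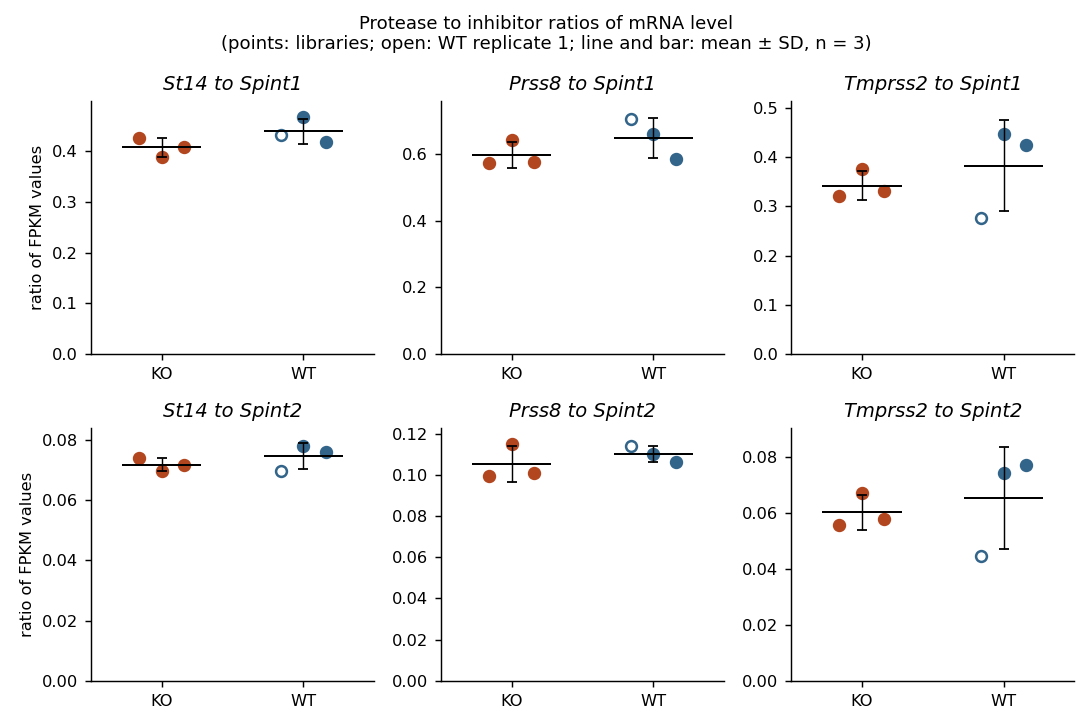
Ratios of FPKM values of St14, Prss8 and Tmprss2 to the inhibitors Spint1 (top) and Spint2 (bottom) in KO (left) and WT (right) libraries, with axes that start at 0. The ratio of Tmprss2 to Spint1 is lowest in WT replicate 1 (open), at 0.276, and highest in the other WT libraries.

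The rest of the family was barely detected. Of 12 further type II protease genes matched by name, 10 had at least 1 count and 5 were tested, and 0 of the 5 passed in either fit (0 at an unadjusted p under 0.05; DESeq2 and limma also 0). Their median log2 fold change was -0.29 with all 6 libraries and -0.22 without WT replicate 1. Tmprss5 stood at 0.627 ± 0.122 CPM in KO and 1.03 ± 0.561 CPM in WT, which gave -0.70 on the log2 scale (SE 0.49, adjusted p = 0.584 in edgeR). WT replicates 2 and 3 averaged 0.726 CPM, and the log2 fold change was -0.21 (SE 0.51, adjusted p = 0.887) without WT replicate 1. Tmprss6, matriptase-2, which restrains hepcidin in liver, stood at 0.895 ± 0.267 CPM in KO and 1.01 ± 0.184 CPM in WT (SD, n = 3 each). The log2 fold change of Tmprss6 was -0.18 (SE 0.38) with all 6 libraries and -0.31 (SE 0.43) without WT replicate 1. Tmprss11a, Tmprss11b and Tmprss11f, named after their values were seen, lie beside Tmprss11d on chromosome 14. Tmprss11a had 10, 8 and 37 counts in KO libraries and 50, 9 and 8 counts in WT libraries. The log2 fold change of Tmprss11a was -0.29 (SE 0.95, adjusted p = 0.897 in edgeR) with all 6 libraries. Leaving out WT replicate 1 turned it to 1.26 (SE 0.79, adjusted p = 0.465). Tmprss11b had 3, 4 and 4 counts in KO libraries and 33, 8 and 6 counts in WT libraries. Tmprss11f had 0 counts in each KO library and 6, 0 and 0 counts in WT libraries. All 3 were highest in WT replicate 1. KO replicate 3, which was next for Tmprss11a, was also the highest library for Bpifa1, a secreted protein of large airways, with 490, 741 and 7094 counts in KO libraries and 590, 3125 and 3542 counts in WT libraries. The 7 airway secretory markers together were lowest there among KO libraries: 7053, 6683 and 6351 CPM in KO replicates 1 to 3. WT replicates 2 and 3, next for Bpifa1, had 9 and 8 counts of Tmprss11a, and a link between the genes was not tested. Genes of the Tmprss11 cluster resemble each other, so their low counts are uncertain. The 5 other membrane-anchored serine proteases (Prss21, Prss27, Prss41, Prss55 and Tpsg1) summed to 0.0603 to 0.643 CPM a library, and none passed the filter.

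Substrates of these proteases and the receptors of those substrates did not pass the edgeR test either, but 2 of them lay closest to it. Of 16 genes 15 were tested, and 0 passed with all 6 libraries (3 at an unadjusted p under 0.05, against 11.3% of all genes) or without WT replicate 1 (4, against 17.8%). The median log2 fold change was -0.10 with all 6 libraries and -0.04 without WT replicate 1. With all 6 libraries DESeq2 called 2 of the 15, Scnn1b and Plaur, both lower in KO, against 2.73% of the 18347 genes it gave an adjusted p, and limma called 0. Without WT replicate 1 DESeq2 called the same 2, against 6.51% of 18257 genes.

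Scnn1b encodes the beta subunit of the epithelial sodium channel, a channel that prostasin and other serine proteases activate. It is listed as a part of that channel, and mRNA levels do not show which subunits are cleaved. Scnn1b stood at 33.9, 25.9 and 26.8 CPM in KO libraries, against 47.1, 38.9 and 40.4 CPM in WT libraries. The groups did not overlap, which held for 22.8% of all genes (11.4% lower in KO). Its log2 fold change was -0.55 (SE 0.14), with an adjusted p of 0.259 in edgeR and 0.0483 in DESeq2. It was -0.46 (SE 0.11) without WT replicate 1, with adjusted p-values of 0.0508 and 0.00708. The other channel subunits did not share this difference in size: Scnn1a stood at 342 ± 20.0 CPM in KO and 314 ± 8.53 CPM in WT, and Scnn1g at 61.4 ± 8.88 CPM in KO and 67.7 ± 4.07 CPM in WT (SD, n = 3 each). The log2 fold change of Scnn1a was 0.12 with all 6 libraries and 0.12 without WT replicate 1, and that of Scnn1g was -0.14 and -0.18. The difference between subunits was not tested.

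Plaur, the receptor of urokinase, averaged 10.3 ± 0.592 CPM in KO libraries and 14.8 ± 1.05 CPM in WT libraries (SD, n = 3 each). These groups did not overlap either. Its log2 fold change was -0.52 (SE 0.14), with an adjusted p of 0.265 in edgeR and 0.0279 in DESeq2. It was -0.52 (SE 0.13) without WT replicate 1, with adjusted p-values of 0.0544 and 0.0219. Its ligand urokinase (Plau) stood at 36.6 ± 2.62 CPM in KO and 36.6 ± 6.22 CPM in WT, with a log2 fold change of 0.00 with all 6 libraries and 0.15 (SE 0.08, adjusted p = 0.417 in edgeR) without WT replicate 1. The HGF receptor Met stood at 72.9 ± 6.97 CPM in KO and 86.8 ± 4.06 CPM in WT (adjusted p = 0.430 in edgeR), and Cdcp1, a surface protein that serine proteases cleave, at 21.6 ± 1.19 CPM in KO and 26.1 ± 2.83 CPM in WT (adjusted p = 0.457). F2rl1, which encodes PAR2, stood at 10.4 ± 0.820 CPM in KO and 10.6 ± 2.73 CPM in WT (SD, n = 3 each). Leaving out WT replicate 1, the log2 fold change was -0.21 for Met, -0.25 for Cdcp1 and 0.17 for F2rl1, against -0.25, -0.27 and -0.03 with all 6 libraries.

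**Figure D5:**
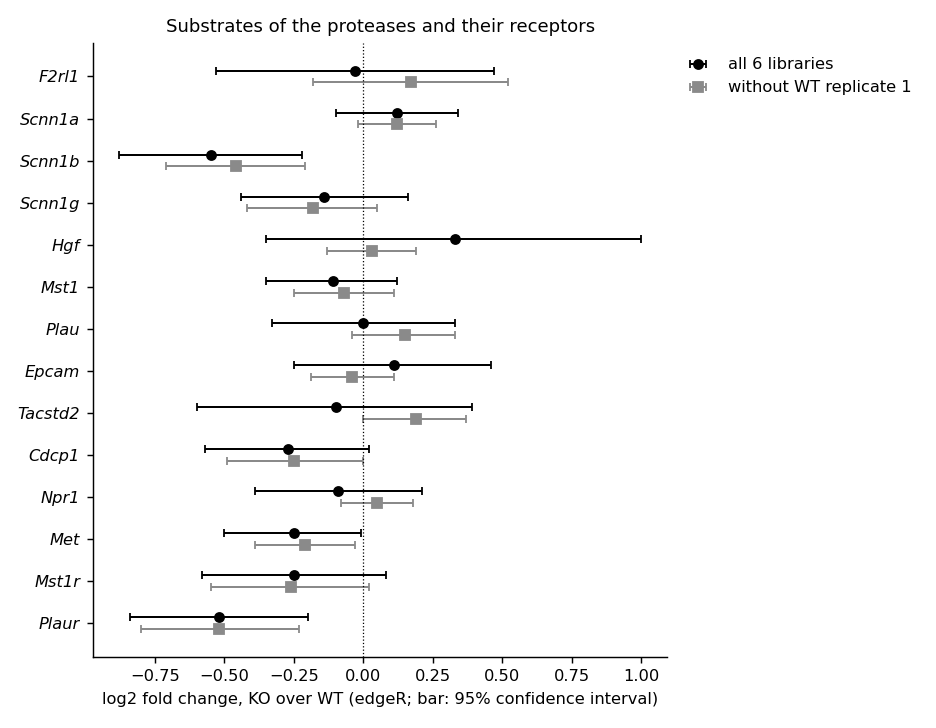
Log2 fold change, KO over WT, of 14 tested substrate and receptor genes, with all 6 libraries (circles) and without WT replicate 1 (squares), and 95% confidence intervals. Nppa is left out for its wide interval. The intervals of Scnn1b, Plaur and Met lie below 0 in both fits, and none of the 3 passed the adjusted edgeR test.

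Other inhibitors gave 0 calls in edgeR. Of 16 symbols 15 were matched, 11 were tested, and 0 passed with all 6 libraries (3 at an unadjusted p under 0.05, against 11.3% of all genes; DESeq2 and limma 0) or without WT replicate 1 (3, against 17.8%). The median log2 fold change of the 11 was -0.25 with all 6 libraries and -0.14 without WT replicate 1. Aplp2, a relative of the amyloid precursor, has no Kunitz domain in the deposited annotation of the gene. It stood at 720, 714 and 621 CPM in KO libraries, against 1085, 843 and 783 CPM in WT libraries. KO over WT gave -0.40 on the log2 scale (SE 0.15, adjusted p = 0.390 in edgeR), and -0.25 (SE 0.07) without WT replicate 1. Tfpi, the tissue factor pathway inhibitor, stood at 76.8, 98.1 and 104 CPM in KO libraries, against 105, 121 and 116 CPM in WT libraries. KO over WT gave -0.30 (SE 0.13) for Tfpi, and -0.35 (SE 0.11) without WT replicate 1. For both genes every KO library lay below every WT library, as for 11.4% of all genes. DESeq2 called both without WT replicate 1 (adjusted p 0.0151 for Aplp2 and 0.0195 for Tfpi), where edgeR gave 0.0894 and 0.113. They were 2 of the 11 inhibitors tested, against 6.51% of the 18257 genes that DESeq2 gave an adjusted p in that fit. Serpina1, the elastase inhibitor of plasma, stood at 25.9 ± 1.30 CPM in KO and 42.8 ± 15.5 CPM in WT, which gave -0.72 on the log2 scale (SE 0.25, adjusted p = 0.374 in edgeR). WT replicate 1 was highest at 58.9 CPM, and without it the log2 fold change was -0.42 (SE 0.14, adjusted p = 0.153). Wfikkn2 stood at 0.255 ± 0.127 CPM in KO and at 3.96, 0.241 and 0.804 CPM in WT replicates 1 to 3, so its log2 fold change of -2.68 (SE 1.02, adjusted p = 0.402) was -1.03 without WT replicate 1.

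The profile of Tmprss2 over the 6 libraries was most like those of Cdc42ep3, Tmtc2, Smpdl3a, Clca2 and Mme. Likeness was the root mean square difference between log2 CPM profiles, each centred on its mean, over 10477 named protein-coding genes with a mean of at least 10 CPM. It was 0.052 for Cdc42ep3 and 0.069 for Mme, against 0.194 for a flat profile. Cdc42ep3 stood at 55.4, 65.3 and 56.6 CPM in KO libraries and at 61.6, 70.1 and 72.5 CPM in WT libraries. Of all compared genes 14.9% were closer to Tmprss2 than a flat profile. The 6 other genes of the set that reached this level were not among them: St14 stood at 0.236, Hpn and Spint1 at 0.240, Spint2 at 0.273, Prss8 at 0.282 and Tmprss4 at 0.562.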

How the data were processed

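Lung mRNA of 3 KO and 3 WT rats was selected with poly-T beads and sequenced as paired reads, per the labels. The build mRatBN7.2 and the tools DESeq2 1.42.0, featureCounts 2.0.6, StringTie 2.2.3, HISAT2 2.2.1 and CASAVA are named in the submitters' processing notes. Roles, settings, strand and the handling of shared reads are not given there. The authors deposited raw counts per gene and FPKM. In a check, FPKM matched counts per gene length over library sizes that follow DESeq2's size factors. Their table of differences between KO and WT, as deposited, gives a signal per library (size-factor normalised counts), p-values and log2 fold changes; only its list of genes and its log2 fold changes were used. Counted reads made up 76.25% to 83.67% of the labels' clean reads. Labels put all 6 libraries in 1 batch and call the rats biological replicates.

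Counts were tested with edgeR 4.0.16 in R 4.3.3 (TMM, filterByExpr with a minimum count of 10 and total of 15, glmQLFit, glmQLFTest, genotype alone), with Benjamini-Hochberg adjustment over all tested genes and a threshold of 0.05. SE is the log2 fold change over the square root of F. Every adjusted p is from this fit unless DESeq2 1.42.0 or limma 3.58.1 (log2 scale of FPKM, pseudocount 1 or 0.1) is named. A change on the FPKM scale understates low genes. Both count tests were tested on simulated data, where DESeq2 made a larger share of false calls than edgeR with all 6 libraries. Those counts were drawn with edgeR's own dispersion estimates and lacked the marker RNAs particular to WT replicate 1. The simulation therefore cannot rank the tools on these data, and it gives no ground to discount a DESeq2 call. The 10 genes and the lists were chosen with earlier results of these data known. Named genes are all 10, and of each other list, since none was called, up to 4 with the smallest p and a mean of at least 1 CPM in 1 group. Scnn1a, Scnn1g, Plau, F2rl1 and Nppa are named outside this rule, as are Tmprss11a, Tmprss11b and Tmprss11f. Of the other lists, Tmprss11bnl matched Tmprss11b, Trp63 was matched through a RefSeq synonym, and Spint5 and Trf were not matched. Chromosome numbers are RefSeq's; positions are those of the deposited table unless GRCr8 is named. Floors for a count of 0 cover counting error only and take each count as independent.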

Additional observations from a re-analysis of the deposited data

How the results depend on the processing

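No result of the 10 genes crossed the threshold with all 6 libraries in any of the 13 alternatives that included the gene. These were RLE normalization, DESeq2, no filter, 3 limma fits on FPKM, the replicate block and 6 left-out libraries. Over all genes, 10 calls became 501 with DESeq2, 4 with limma and no filter on low FPKM, 2 with the replicate block, and 1 to 758 when 1 library was left out (758 without WT replicate 1, 7 without WT replicate 3, 1 or 2 without another). Same-numbered libraries did not deviate together (correlations of -0.0808, 0.0275 and -0.0848 across genes, against -0.1143 to 0.123 for differently numbered ones). With 3 libraries a group this check cannot exclude that the rats were paired. The block changed no call of the 10 genes or the lists. Without WT replicate 1, 758 calls became 1188 with DESeq2, 1707 with no filter on low counts, 149 with limma, and 233 to 522 with a further library left out; a lone WT library is then assumed to vary like the KO group. The cause of these moves was not tested. In that fit the count among the 10 genes was 1 (Tmprss2) with DESeq2, with no filter and without KO replicate 2, and 0 to 1 with a further library left out. Counts of called substrates and receptors, 0 in edgeR, were 2 with DESeq2 in either fit, and without WT replicate 1 were 3 with no filter (Plaur and Scnn1b, lower in KO, and Nppa at 1.67, higher in KO) and 0 to 1 with a further library left out. Counts of other inhibitors, also without WT replicate 1, were 2 with DESeq2, 3 with no filter (Aplp2, Serpina1 and Tfpi) and 0 to 1 with a further library left out. Direction was followed over the alternatives only for the 8 tested genes and the genes named by smallest p from the other lists. Other genes turned too, such as Tmprss11a, at -0.29 with all 6 libraries and 1.26 without WT replicate 1. Among the genes followed, no value whose direction turned had passed the test. With all 6 libraries these were Tmprss4 at 0.00 without WT replicate 1 (range with 1 library left out -0.72 to 0.00) and Tmprss6 at 0.04 without KO replicate 2 (-0.37 to 0.04). In the fit without WT replicate 1, Tmprss4 was at 0.00 with no filter, at -0.01 with limma, and at -0.25 to 0.16 with a further library left out (-0.02 without WT replicate 3). Leaving out WT replicate 3 there turned Corin to -0.04 (range -0.04 to 0.27), Spint1 to 0.06 (-0.09 to 0.06), Tmprss5, -0.21 before, to 0.29 (-0.58 to 0.29) and Wfikkn2, -1.03 before, to 0.08 (-1.64 to 0.08), and leaving out KO replicate 3 turned Spint1 to 0.01. Tmprss5 passed the filter on low values, and so gave a value, in 11 of 13 alternatives with all 6 libraries and in 8 of 9 without WT replicate 1. Tmprss11d and Tmprss13 had 0 counts in 3 and 5 libraries and did not pass the filter on low counts. Some alternatives with another filter or none included them, and neither was called there. What a count of 0 allows is given beside Tmprss13.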
